A study of Oryza sativa with 11 samples.

Results

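The salt response of root tips of IR29, a salt-sensitive rice (Oryza sativa) genotype, was read from 5 of the 11 Affymetrix Rice Genome Arrays in the series. The members were chosen by their labels: 3 arrays of IR29 root tips labelled salt and 2 arrays of IR29 root tips labelled control, with no further IR29 control array in the series. The remaining 6 arrays, 3 salt and 3 control, are of FL478, a salt-tolerant recombinant inbred line that has IR29 as a parent, and they serve here to share the estimate of the spread and for comparison. The stressed plants received a mixture of sodium and calcium chloride that was raised in steps and then held for some days, and the control plants received nutrient solution alone. The sample labels describe hydroponics, whereas the study's methods describe sand tanks. Each array is labelled as a separate biological replicate of roots harvested at early tillering.

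Salt in the root medium lowers the water potential outside the root and carries sodium into its cells, where sodium competes with potassium. Root tips hold the dividing and elongating cells, so their transcripts cover wall building, nutrient uptake, hormone signalling and defence as well as respiration. A sensitive genotype is one that accumulates sodium in the shoot and loses yield at salt levels that a tolerant one withstands.

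The values are linear signals in arbitrary units. They were analysed as log2(signal + 32) for 57258 probe sets, and a log2 difference is the salt mean minus the control mean on that scale, which understates the change of dim genes. The median signal was 52.3 to 57.4 units on the IR29 arrays, and 38.4% to 39.7% of their probe sets lay under 32 units. The tissue label was checked against markers. Lsi1, the silicon influx channel of the root exodermis and endodermis, gave 29693 to 35606 units on the salt arrays and 31644 and 35533 units on the control arrays. The summed signal of 10 genes of dividing root cells was 12944 to 15798 units under salt and 13615 and 13845 units in the control. The sum of 5 photosynthesis genes was 288 to 937 units under salt and 404 and 861 units in the control. The ratio of the 3′ to the 5′ probe set of GAPDH, a measure of RNA integrity, was 1.86, 2.05 and 1.64 on the salt arrays and 1.58 on both control arrays, and its part in the results was not tested.

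The library labelled IR29 control 1 stood apart from the other IR29 libraries in genes that separate the genotypes. At 29 probe sets with over 500 units on all 6 FL478 arrays and under 100 units on the 3 IR29 salt arrays and IR29 control 2, the library labelled IR29 control 1 had over 100 units in 18. In those 18 its signal was a median of 0.496 times the FL478 mean, with a range of 0.147 to 1.30. When the same rule was applied with each other IR29 array left out of it in turn, that array had over 100 units in 0 of 11 probe sets. The reverse was also measured. At 18 probe sets bright on the other 4 IR29 arrays and dim on all FL478 arrays, this library was below their mean in 18 of 18, at a median of 0.540 times it, whereas the medians of the other 4 IR29 arrays were between 0.817 and 1.24. The FL478 arrays were not free of such departures. FL478 salt 2 was below the other FL478 arrays in 15 of 15 FL478-specific probe sets, at a median of 0.373 times their mean, and had over 100 units in 1 of 12 IR29-specific ones. FL478 control 3 had over 100 units in 4 of 15. The causes were not tested. Since 1 of 2 IR29 control arrays is affected, most counts, and the differences that it moved by over 1.5 times, are given below with and without it. This alternative was added after the data had been seen.

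**Figure D1:**
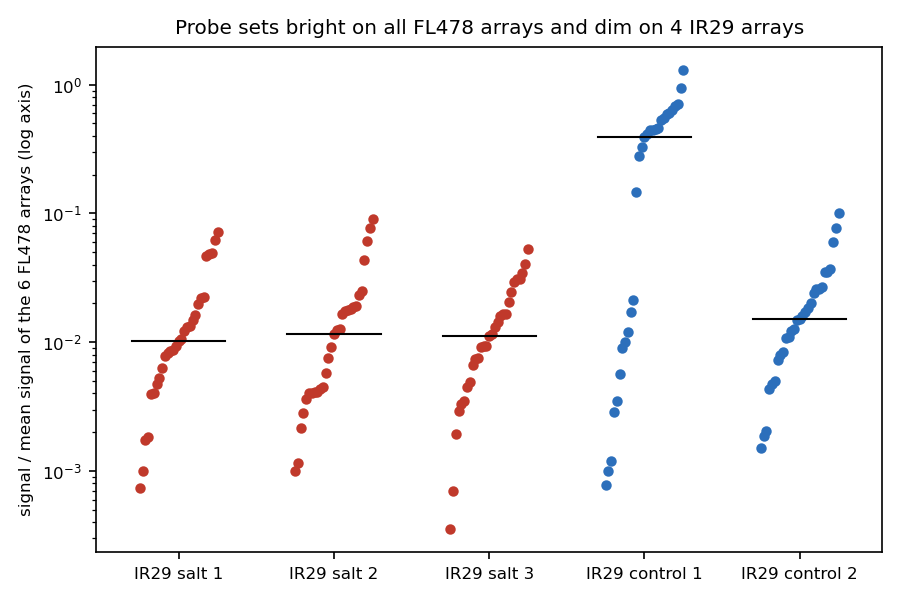
Signal of each IR29 array relative to the mean of the 6 FL478 arrays (log axis) at the 29 probe sets that were over 500 units on every FL478 array and under 100 units on the IR29 salt arrays and IR29 control 2. Points are probe sets sorted within each array and lines are medians; the library labelled IR29 control 1 has its median at 0.395 of the FL478 mean, and 18 of its points lie above all those of the other arrays.

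Few single probe sets passed the threshold in IR29 in this fit. limma called 3 of 57258 probe sets at an adjusted p under 0.10 (0.00524% of all), of which 1 rose (0.00175%) and 2 fell (0.00349%). An unadjusted p under 0.05 was reached by 1624 probe sets with a positive difference (2.84%) and 1916 with a negative one (3.35%). In FL478, with 3 arrays a group, the same fit called 28 higher (0.0489%) and 69 lower (0.121%). Same-numbered FL478 arrays deviated together, and with replicate number as a block within FL478 the fit called 5 higher and 9 lower there, 13 of them among the 97. Without the library labelled IR29 control 1, limma called 1 IR29 probe set (0.00175%), lower under salt and not among the 3, while 1329 (2.32%) had a positive and 1884 (3.29%) a negative difference at an unadjusted p under 0.05. Leaving out IR29 control 2 gave 49 calls, 40 of them probe sets in which control 1 exceeded control 2 by over 1 log2 unit. Without salt replicate 1, 2 or 3 there were 0, 6 and 0 calls, and quantile normalization gave 1 call in each direction. The study used another test (SAM) on otherwise processed values (RMA) at the same false discovery rate. Its supplied lists held 1093 probe sets for IR29. It reported more for IR29 than for FL478 in each direction, the reverse of the order here, and the reason was not tested.

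The probe set that rose, OsAffx.13383.1.S1_at, has no gene name in the annotation used. It gave 280.1, 415 and 276 units on the salt arrays, against 23.0 and 28.8 units on the control arrays. It was dim on every FL478 array, at 20.5 to 30.1 units under salt and 9.80 to 30.0 units in the control, so that a signal well above the dim range appeared in salt-stressed IR29 and in no other group. The difference in IR29 was 2.60 log2 units (SE 0.23, adjusted p = 0.0261), or 2.53 without the library labelled IR29 control 1 (adjusted p = 0.200).

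LOC_Os03g22170 encodes a protein described as ethylene-responsive factor-like, of the AP2/ERF type of transcription factors. Its signal was 576, 643 and 757 units under salt, against 5528 and 3440.3 units in the control. The groups lay far apart. It fell by 2.68 log2 units (SE 0.28, adjusted p = 0.0745). In FL478 it fell as well, by 1.79 log2 units (adjusted p = 0.0694, or 0.105 with the block). LOC_Os10g39360 encodes a pepsin-type aspartic endopeptidase, an enzyme that cleaves proteins at acid pH. It gave 121, 111 and 56.3 units under salt, against 639 and 502 units in the control, and fell by 2.27 log2 units (SE 0.25, adjusted p = 0.0807). Without the library labelled IR29 control 1 the differences of these genes were -2.34 and -2.10, with adjusted p = 0.237 and 0.290. A gene with a nearby locus number, LOC_Os10g39390, encodes another aspartic proteinase, of the nepenthesin type. It gave 92.6, 82.0 and 24.5 units under salt, against 772 and 383 units in the control (log2 difference -2.64, adjusted p = 0.391).

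**Figure D2:**
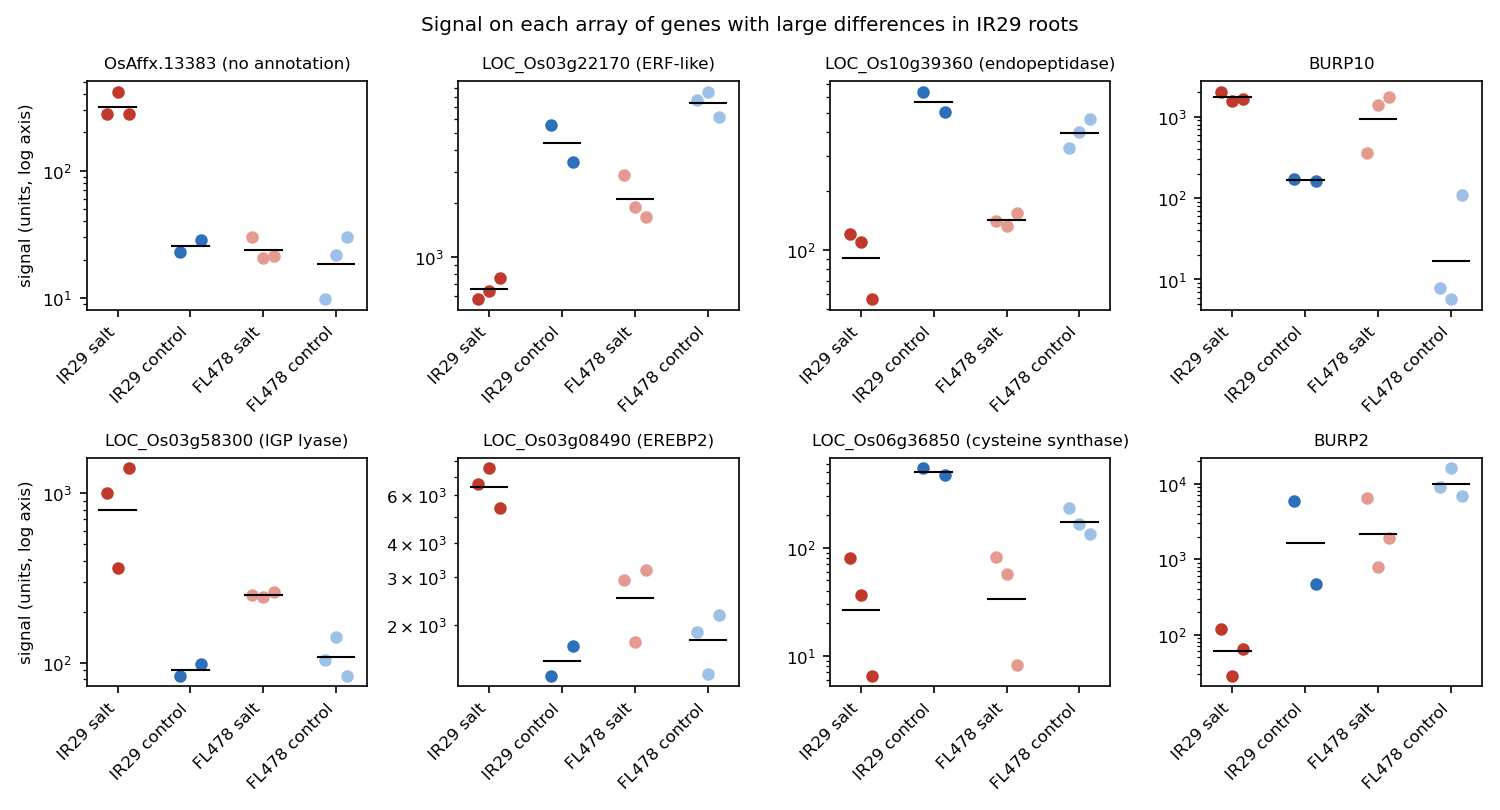
Signal on each of the 11 arrays (units, log axes with a scale for each panel) of 8 genes or probe sets with large differences in IR29, by genotype and treatment. Points are arrays and lines are means of the log values; in every panel the 3 IR29 salt arrays lie on one side of the 2 IR29 control arrays.

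To describe functions outside energy metabolism, the 20 largest differences in each direction were taken from 1301 annotated probe sets, with 1 probe set per gene. These lay above the median level, had an unadjusted p under 0.05 and no overlap between salt and control arrays, which over all probe sets held for 10.5% in the positive and 10.9% in the negative direction. Of the 1301, 709 were higher and 592 lower under salt. Size, separation and p chose the 40 genes, so these values are a description. The 20 positive differences ran from 1.62 to 3.16 with a median of 2.08, and without the library labelled IR29 control 1 their median was 1.97. The 20 negative ones ran from -4.17 to -2.08 with a median of -2.50, and their median was -2.09 without that library. In FL478 the medians of the same genes were 1.04 and -1.44, and 18 of 20 had the same sign in each direction. Genes picked for their size in IR29 are bound to look smaller elsewhere.

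The 20 positive differences included a few transcription factors and regulators. The lists of factor families were read at an unadjusted p under 0.05. Over all 17905 named genes, each at its brightest probe set, 3.7% passed with a positive and 2.94% with a negative difference. The small bHLH and homeobox lists, described below, had larger positive shares, of 16.7% and 9.09%. Of 12 AP2/ERF genes, 6 WRKY genes and 11 MYB genes 0 passed in either direction, with medians of 0.03, -0.42 and -0.12. The lists took genes by symbol or synonym, so family members without a matching one are not counted. LOC_Os03g22170 and LOC_Os03g08490, both described as AP2/ERF factors, are not among the 12. Of 12 bHLH genes 2 were positive and 1 negative (8.33%), with a median of -0.13. With all arrays, 1 of 8 NAC genes was positive and 0 negative. Of 20 bZIP genes 0 were positive and 1 negative, and of 62 zinc finger genes 3 were positive and 1 negative. Of 33 homeobox genes 3 were positive and 0 negative (4 and 0 without the library labelled IR29 control 1). LOC_Os03g08490, described as an ethylene-responsive element binding protein and thus of the same AP2/ERF class as the called LOC_Os03g22170, gave 6582, 7543 and 5376 units under salt, against 1300.0 and 1670.4 units in the control (log2 difference 2.10, adjusted p = 0.217). This gene and LOC_Os03g22170, which is among the 20 negative differences, had opposite signs. Its difference in FL478 was 0.51. LOC_Os04g49550 and LOC_Os05g36310 encode RING-H2 finger proteins of the ATL family, whose members attach ubiquitin to other proteins. LOC_Os04g49550 gave 1027, 471 and 964 units under salt, against 177 and 145 units in the control (2.07, adjusted p = 0.461), and its FL478 difference was -0.53. LOC_Os05g36310 gave 2830.5, 2965 and 3655 units under salt, against 1092 and 742 units in the control (1.76, adjusted p = 0.431). MADS23, a MADS-box transcription factor, gave 191, 55.3 and 213 units under salt and 38.2 and 10.9 units in the control. A second, dim probe set of MADS23 differed by 0.23, and its salt and control arrays overlapped.

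Enzymes of hormone and indole metabolism were also among the 20. LOC_Os01g61610 is described as a putative gibberellin 20 oxidase 2, of the oxidases that carry out late steps of gibberellin synthesis. Its signals were 472, 282 and 509 units under salt, against 46.9 and 80.0 units in the control (2.23, adjusted p = 0.118), and 2 further probe sets of this locus gave 1.45 and 1.74. LOC_Os03g58300 is described as an indole-3-glycerol phosphate lyase, an enzyme that in maize releases free indole for defence compounds. It gave 997, 362 and 1399.8 units under salt, against 83.6 and 97.7 units in the control (2.77, adjusted p = 0.252). All 3 salt arrays were above both controls, but salt 2 was well below both others. In FL478 the same gene had 244 to 262 units under salt and 83.7 to 142 units in the control, a difference of 1.02.

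Proteins of the cell wall and of the outer cell surface were found in both directions. BURP10, which has a BURP domain and is described as the non-catalytic beta subunit of a polygalacturonase, a pectin-cleaving enzyme, had the largest positive difference. It gave 2021, 1573 and 1674 units under salt, against 173 and 162 units in the control (3.16, adjusted p = 0.397). It rose in FL478 by 4.05 (adjusted p = 0.0700), where 2 of the 3 control arrays were under 10 units. BC1L9, a COBRA-like protein of the family that takes part in laying down cellulose, gave 5293, 2095 and 4483 units under salt, against 665 and 1275 units in the control (1.96, adjusted p = 0.512). A second probe set of BC1L9 gave 1.54, and the 2 probe sets had FL478 differences of -0.03 and -0.08. LOC_Os07g23640, described as the vegetative cell wall protein gp1, differed by 2.45, and LOC_Os03g50160, a chemocyanin-like copper protein, by 2.03. Other probe sets of LOC_Os07g23640 gave 1.38, 1.90 and -0.68, the last of them dim. LOC_Os01g26340 encodes a dirigent-like protein, of the family that guides the coupling of phenolic radicals into lignans. Its signal was 623, 749.7 and 621 units under salt, against 98.2 and 41.5 units in the control (2.83, adjusted p = 0.442). Among the 20 negative differences, LOC_Os10g31380, a glycine-rich structural protein of the wall, gave 40.7, 95.2 and 77.5 units under salt, against 788 and 188 units in the control (-2.08, adjusted p = 0.674), or -1.13 without the library labelled IR29 control 1.

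Defence-related and transport proteins were also among the 20 positive differences. LOC_Os11g37940 encodes win2, a wound-induced protein, and gave 477, 519.6 and 1395 units under salt, against 122 and 200.1 units in the control (1.96). LOC_Os01g14550, a pathogen-related protein, gave 1706, 1927 and 2690.5 units under salt, against 408 and 639.7 units in the control (1.95). Both had every salt array above both control arrays, as the choice required. LOC_Os03g10090, a polyol transporter that moves sugar alcohols across membranes, was dim in the control, at 4.80 and 36.2 units, and gave 145, 152 and 267 units under salt. LOC_Os04g33920, a lipid-binding protein, differed by 2.20, and LOC_Os12g12590, an NADP-dependent oxidoreductase, by 2.96, or 2.08 without the library labelled IR29 control 1.

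Enzymes of amino acid and sulphur metabolism were among the 20 negative differences. GLT2 is a glutamate synthase, which makes glutamate from glutamine and 2-oxoglutarate. It gave 170.2, 1014 and 116 units under salt, against 2309 and 5151 units in the control (-3.47, SE 1.24, adjusted p = 0.685). The spread within each group was wide, and FL478 salt 3 (149 units) was similarly far below the other FL478 salt arrays (1857 and 2989 units). LOC_Os06g36850 encodes a cysteine synthase, the enzyme that fixes sulphide into cysteine. It gave 79.7, 36.4 and 6.50 units under salt, against 542 and 468 units in the control (-3.01, adjusted p = 0.279), and the difference was -2.91 without the library labelled IR29 control 1. The nodulin-like proteins LOC_Os01g36560 and LOC_Os05g41420 had differences of -3.15 and -2.29. LOC_Os05g41420 gave 279, 225 and 197 units under salt, against 1462 and 1074 units in the control (adjusted p = 0.252), and it fell in FL478 by 2.06 (adjusted p = 0.0780, or 0.131 with the block). LOC_Os06g35560, a reticuline oxidase-like flavoprotein, differed by -2.27.

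Several of the largest negative differences rested on the library labelled IR29 control 1. In 12 of the 20 genes the 2 control arrays were over 1 log2 unit apart, with control 1 the higher in 11, whereas among the 20 positive differences this held for 2 genes, with control 2 the higher in both. Over all probe sets above the median level, control 1 exceeded control 2 by that much in 3.71% and the reverse held in 3.09%. BURP2, another BURP-domain protein, gave 119, 28.5 and 64.4 units under salt, against 5951 and 467 units in the control. Its difference of -4.17 became -2.38 without control 1, and a second probe set of BURP2 gave 104, 42.5 and 68.0 units under salt, against 359.5 and 258 units in the control (-1.74). LOC4326079 gave 19.0, 57.3 and 40.3 units under salt, against 1470.5 and 85.8 units in the control, and FL478 had 1648 to 3988 units on its salt arrays. For LOC4326079, LOC9271082 and LOC_Os02g43370, differences of -2.61, -2.45 and -2.54 became -0.77, -0.71 and -0.27 without control 1. OsFTL11 (LOC_Os11g18870), of the family of the flowering signal FT, gave 123, 190.3 and 249 units under salt, against 2071 and 455 units in the control. Its difference was -2.25 with both controls and -1.19 without control 1, and -2.27 in FL478. Of the 20 genes, 13 kept an unadjusted p under 0.05 without control 1, against 17 of the 20 positive ones.

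**Figure D3:**
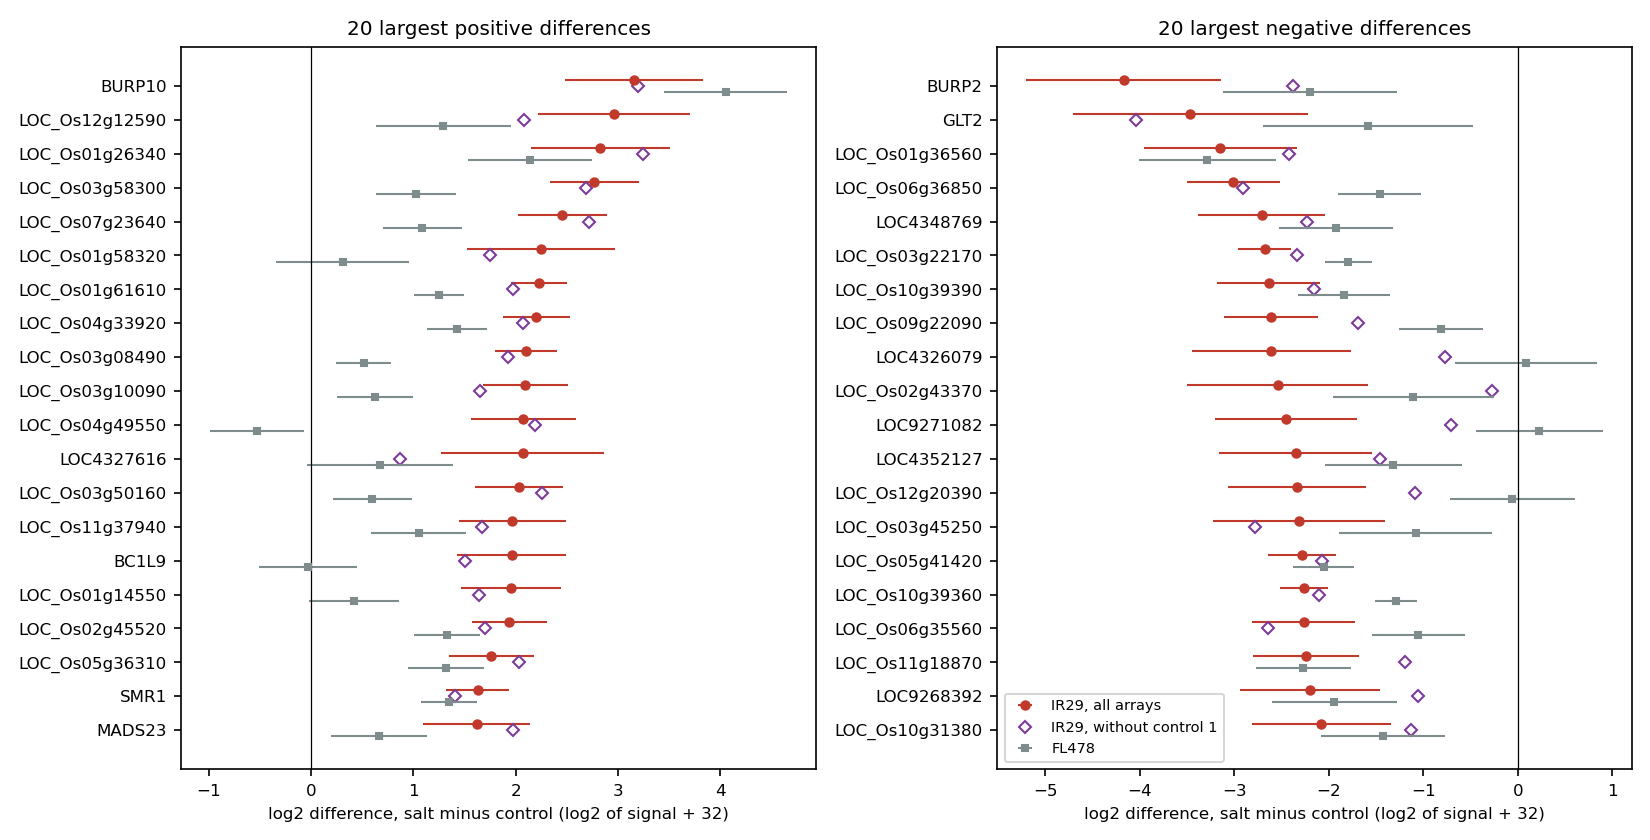
Log2 differences, salt minus control, of the 20 largest positive (left) and 20 largest negative (right) differences in IR29 outside energy metabolism. Filled circles are IR29 with all arrays, diamonds are IR29 without the library labelled control 1, squares are FL478, and bars are standard errors; BURP2 moves to -2.38 and LOC_Os02g43370 to -0.27 without that library.

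Gene lists drawn from symbols and synonyms were read against all 17905 named genes, each taken at its brightest probe set. Over all of them 3.7% had a positive and 2.94% a negative difference at an unadjusted p under 0.05, and the median difference was 0.03. The fit called 0 genes of the lists described here. Without the library labelled IR29 control 1 the 2 shares were 2.83% and 1.8%, and in FL478 they were 6.28% and 5.52%. The members named from the lists are those with the smallest p in each.

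Of 19 genes of phosphate and sulphate uptake, 1 was positive and 3 negative at an unadjusted p under 0.05, with a median of -0.11. Without the library labelled IR29 control 1 these counts were 2 positive and 1 negative, so that the balance turned. OsPht1;2, a root phosphate transporter, gave 3481, 3934 and 4018 units under salt, against 12594 and 7242 units in the control (-1.32, adjusted p = 0.341). OsPht1;6, a phosphate transporter with higher affinity, went the other way, with 617, 534 and 373 units under salt and 242 and 206 units in the control (1.05, adjusted p = 0.462). Of 59 metal transport and chelation genes, 2 were positive and 6 negative, but 1 and 1 without the library labelled IR29 control 1. HMA5, a copper-transporting ATPase, gave 2733, 3159 and 4112 units under salt, against 6073 and 4981 units in the control (-0.74, adjusted p = 0.486), and it fell in FL478 by 1.35 (adjusted p = 0.0661, or 0.106 with the block). In FL478, 10 of the 59 were negative and 2 positive.

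Nitrogen uptake and ion channels gave mixed signs. Among 17 genes of nitrogen uptake and assimilation, 2 were positive and 1 negative (3 and 0 without the library labelled IR29 control 1). The ammonium transporter AMT3-2 gave 1399.7, 1155 and 1488 units under salt, against 738 and 438 units in the control (1.19, adjusted p = 0.462). Its relative AMT2-3 gave 409.5, 355 and 633 units under salt, against 1114 and 626 units in the control (-0.84, or -0.44 without control 1), where salt 3 lay above control 2. Of 29 sodium and potassium transport genes, 2 were positive and 2 negative (1 and 0 without control 1), with a median of -0.03. AKT1, the inward potassium channel of roots, gave 5082, 4190.4 and 7060.4 units under salt, against 16060.2 and 7506 units in the control (-1.04, adjusted p = 0.621). Most of that difference lay in control 1, and it was -0.49 without it. The silicon exporter Lsi2 of the endodermis gave 9641, 13808 and 10255 units under salt, against 20171 and 16109 units in the control (-0.70, adjusted p = 0.512). It does not stand for its cell type, since with all arrays 3 of 25 endodermis markers were positive and 1 negative, with a median of -0.01. Among 25 aquaporins, the water channels of membranes, 1 was positive and 0 negative (0 and 0 without control 1). OsPIP2;5 spread from 1730.1 to 10756 units under salt and gave 23844 and 6805 units in the control.

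Sulphate transport was described outside the lists, in 2 genes chosen after their values had been seen. LOC_Os03g06520, sulfate transporter 3.1, gave 72.4, 62.8 and 91.0 units under salt, against under 32 units on both control arrays (1.58, adjusted p = 0.217), and it rose in FL478 by 1.17 (adjusted p = 0.0994, or 0.174 with the block). LOC_Os03g09970, sulfate transporter 1.2, gave 3923, 4109 and 6259 units under salt, against 9155 and 16226 units in the control (-1.38, adjusted p = 0.512). The 2 transporters thus had opposite signs, and in each the salt and control arrays did not overlap.

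Wall-loosening genes, the expansins and xyloglucan-modifying enzymes that let cells extend, had 4 of 30 members positive and 0 negative at an unadjusted p under 0.05 (2 and 0 without the library labelled IR29 control 1). EXPB18, a beta-expansin, gave 623, 992 and 423 units under salt, against 297 and 197 units in the control (1.29, adjusted p = 0.442). EXP31 gave 794, 1157 and 879 units under salt, against 459 and 515 units in the control (0.89, adjusted p = 0.725). FL478 also had 4 positive and 0 negative members, and EXP31 differed there by 1.29. Cellulose and related polysaccharide synthesis, with 44 genes, had 3 in each direction (1 positive and 3 negative without control 1). CSLE1, a cellulose synthase-like gene, gave 1.16 and CSLA5, of a family that makes mannans, gave -0.76. CSLA5 had 159, 159 and 121 units under salt, against 283 and 255 units in the control.

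Hormone lists had few members past an unadjusted p of 0.05. Of 71 genes of abscisic acid synthesis and signalling, the hormone of water shortage, 2 were positive and 2 negative (2 and 1 without control 1), with a median of 0.08. OsSAPK3, a protein kinase of this pathway, gave 7415, 7222 and 7338 units under salt, against 9670.2 and 10160.5 units in the control (-0.43, adjusted p = 0.658). Its replicates were close together, so that a small difference separated the groups. Among 60 auxin genes, 1 was positive and 2 negative (1 and 1 without control 1). The 2 negative ones, OsPIN5 and OsPIN5a, belong to the PIN family of auxin carriers. OsPIN5 gave 488, 398 and 958 units under salt, against 2538 and 1209 units in the control (-1.56, adjusted p = 0.494), or -1.04 without control 1, and its FL478 difference was -1.30. In the cytokinin list of 31 genes, LOGL1, of the enzymes that release active cytokinin, gave 3378, 2627 and 3776 units under salt, against 6015 and 5213 units in the control (-0.79, adjusted p = 0.462). Of 39 jasmonate genes 0 were past an unadjusted p of 0.05 in IR29 in either direction (0 positive and 2 negative without control 1), with a median of -0.02, whereas in FL478 the list had 11 negative and 0 positive with a median of -0.63. The difference between the genotypes passed an unadjusted p of 0.05 in 1 of the 39.

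Stress proteins gave equally small counts. Of 47 heat shock proteins and factors, 2 were positive and 2 negative (2 and 3 without the library labelled IR29 control 1). Of 52 genes of oxygen radical scavenging, 2 were positive and 2 negative (2 and 0 without it). PRXIIC, a peroxiredoxin that reduces peroxides, gave 10214, 11112 and 11595 units under salt, against 7865 and 6608 units in the control (0.60, adjusted p = 0.638). GRXC6, a glutaredoxin, gave 8246, 8689.8 and 9050.0 units under salt, against 5883 and 5296 units in the control (0.63, adjusted p = 0.589). In both the groups were narrow and separate. Among 26 water deficit genes, dehydrins and BURP proteins included, 1 was positive and 1 negative, namely BURP10 and BURP2. The dehydrin rab25 gave 70.4, 28.8 and 74.0 units under salt, against 19.1 and 21.5 units in the control (0.74, adjusted p = 0.878).

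Protein synthesis showed a small shift in sign. Of 23 cytosolic ribosomal protein genes, 20 had a positive difference, against 54.4% of all named genes, but the median was 0.17 and 0 passed an unadjusted p of 0.05 (1 without control 1). FL478 had a median of 0.22. Of 8 lipid transfer and phospholipase genes, 8 were positive, 2 of them at an unadjusted p under 0.05, with a median of 0.46. LTP-2, a nonspecific lipid transfer protein that carries lipids outside the cell, gave 453, 966 and 414 units under salt, against 240.0 and 256 units in the control (1.10, adjusted p = 0.527).

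**Figure D4:**
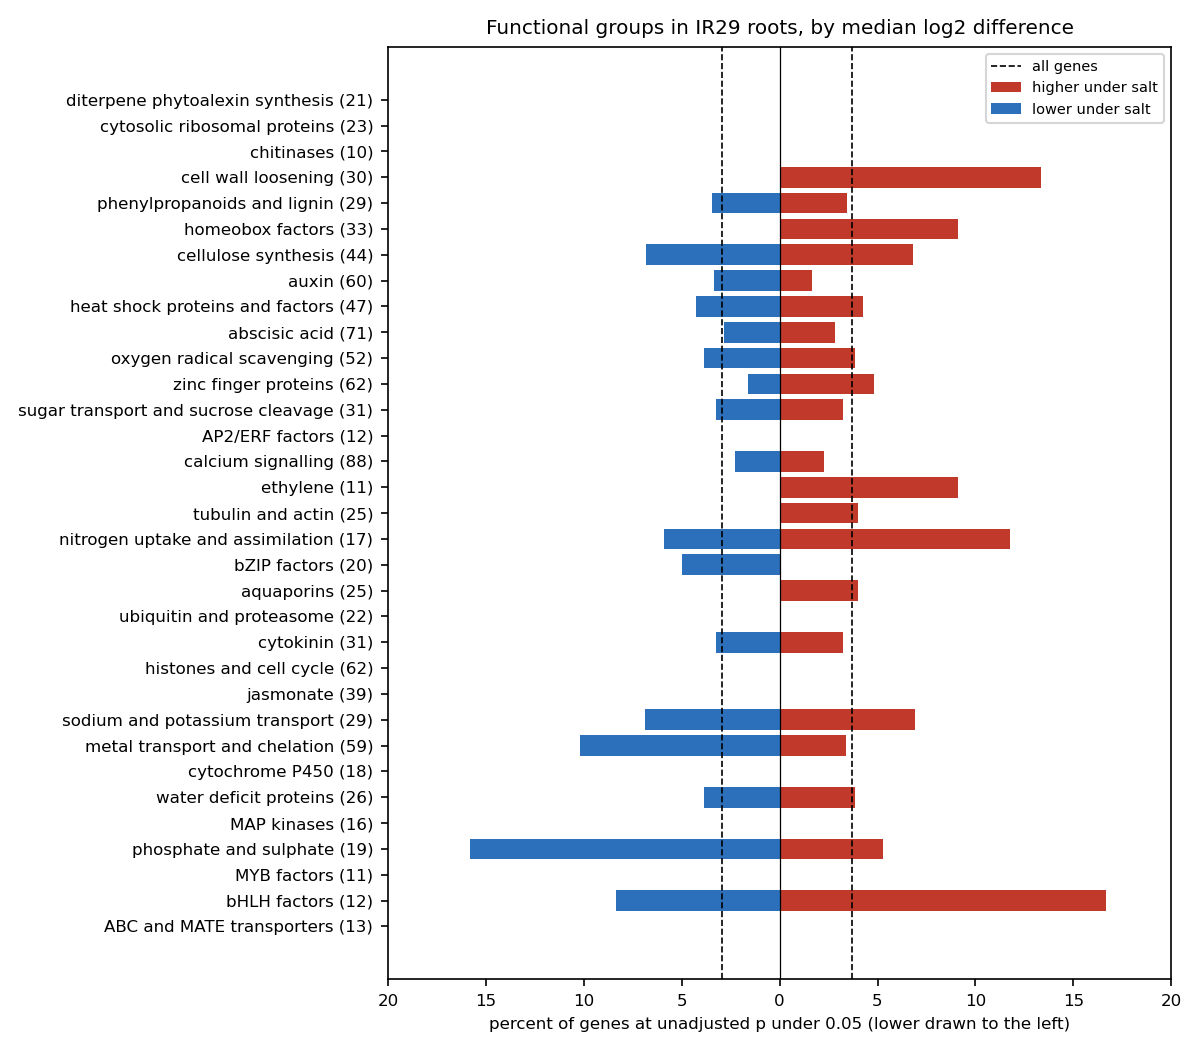
Share of the genes of each list (number of genes in parentheses) with a positive (right) or negative (left) difference at an unadjusted p under 0.05 in IR29, in percent, ordered by the median log2 difference with the highest on top. Dashed lines mark the shares over all named genes, 3.7% and 2.94%; wall loosening has 4 of 30 positive and 0 negative, and the metal list 2 positive and 6 negative of 59.

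The study's own lists of probe sets regulated in IR29, as supplied for this work, held 1093 probe sets. A locus description was given for 1047, which were used here, 611 of them with a positive difference (58.4%, against 50.4% of all probe sets) and 436 with a negative one. They were selected on these arrays, so the direction of a gene is not independent evidence. They were split by described function. Of 50 described as transcription factors or DNA-binding proteins, 43 had a positive difference, and 12 of 13 described as ribosomal, translational or nucleolar. Protein kinases and receptors had 23 of 31 positive, and splicing and RNA-binding proteins 5 of 6. Shares between 47.1% and 66.7% were found for secondary metabolism (38 of 57), lipid proteins (12 of 20), cell wall proteins (17 of 29), membrane transporters (20 of 39) and ubiquitin and RING proteins (8 of 17). Protein folding had 4 of 5 positive. Amino acid and nitrogen metabolism had 19 of 25 negative, endopeptidases and peptidases 17 of 24, peroxidases 12 of 18, and defence proteins 8 of 13. Without the library labelled IR29 control 1, the positive count was 42 for transcription factors and 3 for protein folding, and the counts of the other groups were the same. Such counts take in the sign alone and not the size or the p of a difference. The signs of probe sets selected on these arrays could hardly turn.

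The genes named next are from those groups and were chosen after their values had been seen. Not all of them have the largest differences of their group. In amino acid metabolism, an alanine aminotransferase (LOC_Os10g25130), which exchanges amino groups between alanine and glutamate, gave 4072, 4982 and 4661 units under salt, against 10324 and 12279 units in the control (-1.30, adjusted p = 0.414). A second one (LOC_Os03g08530) also gave a negative difference, of -1.11. A nitrate reductase (LOC_Os02g53130), the entry step of nitrate into metabolism, gave 1824, 3116 and 1821 units under salt, against 1597 and 350.0 units in the control (1.49, adjusted p = 0.638). Its difference was 2.53 without control 1 and 0.44 without control 2. Among the peptidases, a bromelain-type cysteine protease (LOC_Os01g24550) gave 10665, 9747 and 6824 units under salt, against 20751 and 18507 units in the control (-1.13, adjusted p = 0.360). It fell in FL478 by 1.37 (adjusted p = 0.0694, or 0.117 with the block), as did the nepenthesin-1 type aspartic proteinase LOC_Os01g64840, by 1.72 (adjusted p = 0.0694), which differed by -1.53 in IR29.

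Nucleolar proteins, which assemble ribosomes, had small and tight differences. A protein described as interacting with the FHA domain of MKI67 (LOC_Os08g31810) gave 8584, 9317 and 7234 units under salt, against 4591 and 4467 units in the control (0.88, adjusted p = 0.371). NOP5 (LOC_Os03g22740), a core protein of small nucleolar particles, gave 6545, 6578 and 6458 units under salt, against 4390.5 and 4496 units in the control (0.55, adjusted p = 0.512). The nucleolar GTPase NUG2 differed by 0.59. Their FL478 differences were 0.35, 0.32 and 0.31, all positive and smaller. Among the defence proteins, a gamma-thionin (LOC_Os03g03810), a small antimicrobial peptide, gave 279.9, 475 and 266 units under salt, against 1701 and 1307 units in the control (-2.08, adjusted p = 0.334), and it fell in FL478 by 2.20 (adjusted p = 0.0770).

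Peroxidases of the wall showed both signs. LOC_Os07g44550, peroxidase 1, gave 9145, 10922 and 10758 units under salt, against 4950.3 and 3468 units in the control (1.30, adjusted p = 0.366). LOC_Os03g25340, peroxidase 47, gave 517, 510.0 and 302 units under salt, against 909 and 1236 units in the control (-1.24, adjusted p = 0.462). In secondary metabolism, LOC_Os12g13800, described as a caffeic acid O-methyltransferase, was bright in IR29 and dim in FL478. It gave 6437, 7263 and 6585 units under salt, against 1772 and 2710.0 units in the control (1.61, adjusted p = 0.444), and 8.70 to 112 units on the 6 FL478 arrays. The library labelled IR29 control 1 was the lower of the 2 controls, and it was also low at the IR29-specific probe sets described above. In the kinase group a leucine-rich repeat receptor kinase, LOC_Os04g52780, of a class that carries signals from the cell surface, gave 2239, 1035 and 2167 units under salt, against 785 and 629 units in the control (1.25, adjusted p = 0.486), and its FL478 difference was 0.02.

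The response of IR29 was then compared with that of FL478 in the same fit. The test of the difference called 0 of 57258 probe sets (0%), and 2596 (4.53%) had an unadjusted p under 0.05. With the block within FL478 it also called 0, and 2890 had an unadjusted p under 0.05. Without IR29 control 2 it called 18 and without IR29 salt 1 it called 1. By gene the share at an unadjusted p under 0.05 was 3.46%, and 8 of 21 genes of diterpene synthesis were among them. Diterpenes of rice include the gibberellins and the momilactones and phytocassanes, which act against fungi and neighbouring plants. In this list IR29 had 0 genes in each direction at an unadjusted p under 0.05 and a median of 0.31 (0.14 without the library labelled IR29 control 1), whereas FL478 had 1 positive, 8 negative and a median of -0.59. CYP99A2, a P450 of momilactone synthesis, gave 192, 161 and 534 units in IR29 under salt, against 57.8 and 189 units in its control (1.04, or 0.40 without control 1). In FL478 it gave 139.7, 42.3 and 243 units under salt, against 3549, 1195 and 953 units in the control. The IR29 response minus the FL478 response was 4.47 log2 units. The genotypes differed most in their control arrays, where FL478 was far above IR29, and under salt they overlapped. CPS4, a cyclase ahead of CYP99A2, was also higher in the FL478 controls than in the IR29 controls, but far higher only in FL478 control 1. CPS4 gave 128, 101 and 673 units in IR29 under salt, against 66.7 and 80.4 units in its control. In FL478 CPS4 gave 32.3, 25.3 and 206 units under salt, against 957, 106 and 195 units in the control. The summed signal of the 21 genes also leaned on single arrays. It was 10090, 4572 and 3933 units on the FL478 control arrays and 2049, 1914 and 4772 units on the IR29 salt arrays.

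**Figure D5:**
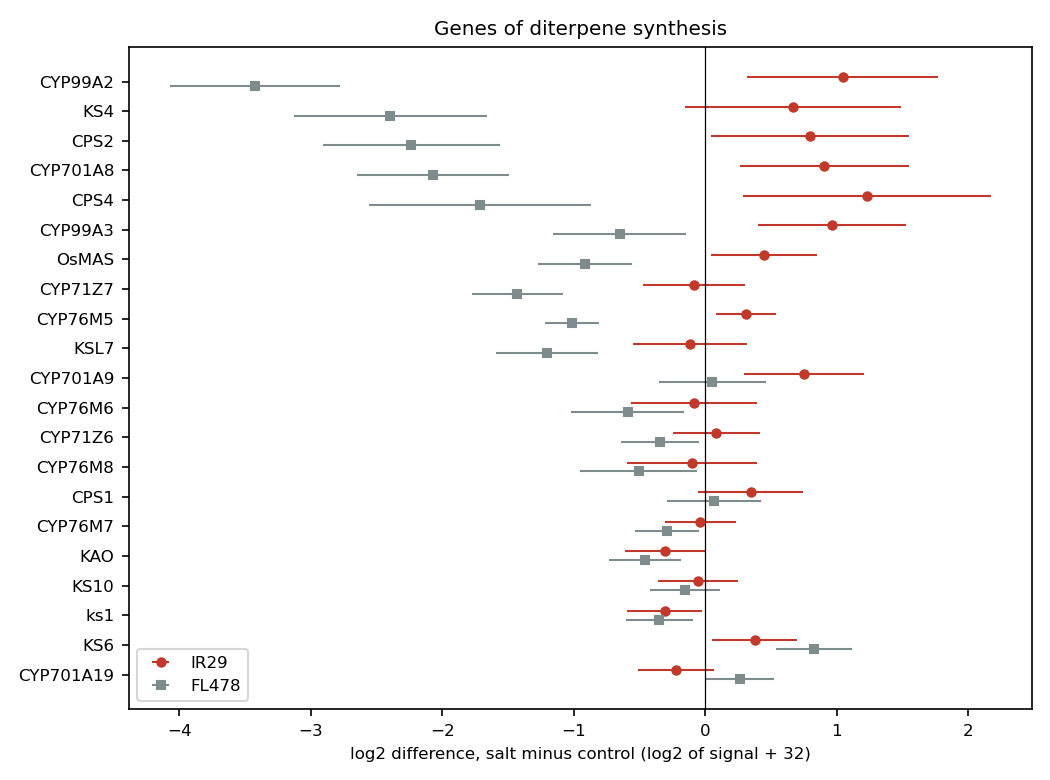
Log2 differences, salt minus control, of 21 genes of diterpene synthesis in IR29 (circles) and FL478 (squares) with standard errors, ordered by the IR29 response minus the FL478 response. CYP99A2, at the top, has the largest gap, 4.47 log2 units, and 0 of the IR29 values are past an unadjusted p of 0.05.

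Among annotated genes with the smallest p in the test of the difference, Pir7b, an esterase of the hydrolase class, gave 611, 1136 and 922 units in IR29 under salt, against 1163 and 1968 units in its control (-0.79, adjusted p = 0.719, or -1.16 without control 1). It fell in FL478 by 3.40 (adjusted p = 0.00955), to 209 to 244 units under salt, against 2224 to 3325 units in the control. The difference between the responses was 2.62. TIM13, an import protein of the mitochondrial intermembrane space, had a log2 difference of -0.47 in IR29 and 0.85 in FL478, with 149.7, 106 and 115 units in IR29 under salt and 164 and 202 units in its control. A brighter probe set of TIM13 gave differences of 0.26 in IR29 and 0.32 in FL478, so that its probe sets disagreed. The remaining probe sets of this kind were dim in IR29, most of them under 110 units on every IR29 array. A brighter probe set of one of their genes, LOC4341285, gave 1535 to 2349 units on the IR29 arrays. It differed by -0.23 in IR29 and -0.30 in FL478, whereas the dim one gave -0.88 and 0.50. None of the differences between the genotypes passed the adjusted threshold.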

How the data were processed

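Root tip RNA was hybridised to Affymetrix Rice Genome Arrays, with 1 array per labelled biological replicate. The deposited intensity values are linear signals that the authors produced with GCOS, whose version is not given in the sources used here, each array scaled to the same trimmed mean. The study's RMA values and its SAM test were not used here. Of 57381 probe sets, 123 with names starting AFFX were left out. log2(signal + 32) was fitted in limma 3.58.1 (R 4.3.3) with 1 mean for each of the 4 groups over 11 arrays (7 residual and 3 prior degrees of freedom). p-values of the moderated test were adjusted by Benjamini-Hochberg over 57258 probe sets and called under 0.10. Tables and figures were made with Python 3.11.15, pandas 2.3.3, numpy 2.4.6 and matplotlib 3.10.9. The number of arrays limits the precision.

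The annotation gives 1 gene for 22436 probe sets (17905 genes) and several for 95. It uses RefSeq names, and the study's tables give locus descriptions for 1620 probe sets. No coordinates or sequences were used. The members, the 44 gene lists and the naming rule were chosen with earlier results of these data known, and list members were trimmed by gene identity after wrong matches had been seen. Named genes were the called probe sets, the 20 largest differences in each direction (above the median level, unadjusted p under 0.05, arrays not overlapping, energy metabolism left out), up to 4 members of each list with the smallest p, and 5 in each direction of the difference between genotypes. Genes outside this rule are marked as such in the text. Simulated data for IR29 served as a test of the fit (5 runs, 200 changed of 57258 probe sets): log2 changes of 1 were recovered in 22.0% and of 2 in 72.4%, and 13.8% of calls were false. The changed probe sets were all above the median level. Spreads were shuffled over probe sets and no array was made to deviate, so these shares need not hold for the real arrays. Alternatives were other offsets, a floor, quantile normalization, a level filter, an intensity trend with robust variance, IR29 arrays alone, a replicate block over all arrays or within FL478, whose same-numbered arrays deviated together, a stricter threshold, and each array left out.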

Additional observations from a re-analysis of the deposited data

How the results depend on the processing

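The 3 calls in IR29 depended on the processing. An offset of 16 left 1 call and a threshold of 0.05 on the adjusted p left 1. Setting values under 32 to 32 in place of the offset gave 80 calls, 9 higher and 71 lower, of which 48 lay below the median level and 31 had every salt array under 32 units. An intensity trend with robust variance gave 25 calls, 10 higher and 15 lower, 8 of them shared with the floor. IR29 arrays fitted alone gave 0 calls. With replicate number as a block limma also gave 0 calls. In IR29 the deviations of same-numbered salt and control arrays correlated at -0.14 and 0.09. With 2 controls these values mirror those of the other pairs, so they cannot show whether the numbers pair the IR29 samples. In FL478 the correlations were 0.33, 0.14 and 0.19, each the highest for its salt array. A replicate block within FL478, added after this was seen, gave 14 calls in FL478 against 97, and 0 for the difference from FL478. A block shared by both genotypes gave 127 calls in FL478. An offset of 64, quantile normalization and a filter at the median level gave 3, 2 and 4 calls. Leaving out each IR29 array gave 0 to 49 calls, and 1329 to 1776 positive and 1667 to 2113 negative differences at an unadjusted p under 0.05. For the difference from FL478, the floor gave 41 calls and leaving out arrays gave 0 to 18. For 41 named genes, chosen mostly because their arrays did not overlap, so that their direction could hardly turn, 20 of 533 values under these alternatives lost a call and 17 gained one. Of 308 values for the lists under alternatives, 40 moved by more than the limit of 1.5 times. The causes of these changes were not tested. Depth is unknown for signals of this kind, and probe sets near 32 units are measured poorly.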
